A study of Mus musculus with 12 samples.

Results

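The enzymes described here are 9 genes of amino acid and glycine conjugation metabolism, Gatm, Agmat, Ddc, Hpd, Hgd, Dao, Acsm2, Keg1 and Glyat, found by their symbols among 24062 rows in the RNA-seq counts of 12 whole mouse kidneys. They were chosen by results already seen in the comparisons of LIN28B OE and let-7 KO kidneys with their controls, Gatm and Acsm2 for being lower in both, so the members' values in those 2 comparisons are a description and carry no test. All kidneys were taken at postnatal day 3 (P3), when the last nephrons of the mouse kidney are forming. The 4 groups hold 3 kidneys each from 2 litters. LIN28B OE kidneys (C57BL/6) express human LIN28B from a doxycycline-induced transgene, TRE-LIN28B with lox-STOP-lox-rtTA, in cells with a history of Wt1-Cre, which marks early kidney progenitors and their nephron, stromal and podocyte descendants. LIN28B control kidneys are from wild-type C57BL/6 littermates. Doxycycline was given in the drinking water for a single day in late gestation in the experiments described for LIN28B OE mice. The schedule is not restated for the sequenced litters. Doxycycline given before birth, in the mother's drinking water, was shared by LIN28B control littermates. No doxycycline is described for the let-7 litters. let-7 KO kidneys (mixed CD1 and C57BL/6) lack let-7a1, let-7d and let-7f1 in every cell, which leaves the other let-7 genes in place, and let-7 WT kidneys are wild type in the same mixed strain.

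The proximal tubule does much of the amino acid chemistry of the kidney. Gatm, arginine:glycine amidinotransferase, makes guanidinoacetate, the precursor of creatine, and Agmat, agmatinase, turns agmatine into putrescine. Ddc, aromatic L-amino acid decarboxylase, makes dopamine in the tubule, while Hpd, 4-hydroxyphenylpyruvate dioxygenase, and Hgd, homogentisate dioxygenase, are steps of tyrosine breakdown. Dao, D-amino acid oxidase, degrades D-amino acids. Acsm2, a medium-chain acyl-CoA synthetase, activates acids such as benzoate, and glycine N-acyltransferases, the family of Glyat and of its neighbour Keg1, join the activated acids to glycine for excretion. LIN28 proteins block the maturation of let-7 microRNAs, which repress messenger RNAs through pairing of their seed.

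The 3 deleted let-7 microRNAs are shown because 1 comparison rests on their loss. The sequences are from RefSeq on GRCm38.p6, 5′ to 3′, with the seed (bases 2 to 8) in capitals, and all 3 have the same seed. They lie on the minus strand at chr13:48538239-48538260, chr13:48536078-48536099 and chr13:48537889-48537910.
mmu-let-7a-5p: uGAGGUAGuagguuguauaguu
mmu-let-7d-5p: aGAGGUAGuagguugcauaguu
mmu-let-7f-5p: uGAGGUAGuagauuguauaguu

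The 7-base matches to this seed, CTACCTC (bases 2 to 8) and TACCTCA (bases 2 to 7 with an A opposite base 1), were looked for in the members' 3′ UTRs, the longest per gene in GENCODE M21 (GRCm38). Gatm was the member with matches, 1 of each kind in a 3′ UTR of 1030 bases, and the 3′ UTRs of the other 8, of 171 to 4681 bases, held neither. Of 21020 genes with an annotated 3′ UTR, 14.9% held at least 1. The matches in Gatm are printed with their surroundings on the minus strand, at chr2:122595189-122595218 and chr2:122594774-122594803, with the matched letters in capitals.
Gatm site of the first kind: tatttaaccatCTACCTCtgtttttaattt
Gatm site of the second kind: actcttactctTACCTCAtctcaagtgggt

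The promoters of Gatm and Acsm2 are shown because these 2 genes were lower in both models. Each is the RefSeq window (GRCm38.p6) from 250 bases before to 50 bases after the gene's start, written in the direction of the gene, at chr2:122611228-122611527 on the minus strand for Gatm and chr7:119554090-119554389 on the plus strand for Acsm2. Capitals mark the motifs found on either strand, which in Gatm are 2 CCAAT boxes (CCAAT) and 1 nuclear receptor motif (AGGTCA), and in Acsm2 are 1 TATA box (TATAAA) and 1 HNF1 motif (GTTAAT).
Gatm promoter: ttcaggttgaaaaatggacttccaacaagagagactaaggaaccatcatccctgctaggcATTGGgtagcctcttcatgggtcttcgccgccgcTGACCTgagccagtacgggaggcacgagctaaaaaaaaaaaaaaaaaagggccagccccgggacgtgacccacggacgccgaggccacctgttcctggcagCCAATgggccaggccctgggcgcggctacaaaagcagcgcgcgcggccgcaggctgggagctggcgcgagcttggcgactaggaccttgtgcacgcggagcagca
Acsm2 promoter: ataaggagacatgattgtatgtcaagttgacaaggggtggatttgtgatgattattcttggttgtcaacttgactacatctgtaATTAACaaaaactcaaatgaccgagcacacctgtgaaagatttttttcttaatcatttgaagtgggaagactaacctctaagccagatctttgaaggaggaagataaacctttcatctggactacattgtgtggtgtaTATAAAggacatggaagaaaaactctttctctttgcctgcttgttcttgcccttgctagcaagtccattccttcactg

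These 2 windows shared none of the 5 motifs searched. Gatm's was 60.7% G and C with 22 CpG, and Acsm2's was 38.3% with 1, against medians of 52.7% and 7 over 32851 windows of the same length. The TATA letters of Acsm2 lay from 28 to 23 bases before its start. Among all windows, 13.6% held TATAAA, 7.1% GTTAAT, 16.3% AGGTCA, 37.4% CCAAT and 0.475% CAAAGTCCA (an HNF4 site), and of the 14 windows of the 9 members, 3, 1, 4, 4 and 0 did. Glyat (chr19:12633308-12653911) and Keg1 (chr19:12695786-12719902) are neighbours on the same strand, with 41874 bases between them.

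Counts per kidney summed to between 39926235 and 61872736. The mouse Lin28b row, to which part of the human transgene's reads may map, held between 1.17 and 4.19 CPM (counts relative to the library total, scaled by TMM over the 12 kidneys) in LIN28B OE kidneys and between 0 and 0.628 in their controls. Counts at the 3 deleted let-7 genes were 0 in every let-7 KO kidney, but those rows held 50 counts or fewer in any kidney. None of the 12 proximal tubule markers was at 0 in any group, and their summed level ranged from 2733 to 2769 CPM in LIN28B controls, 1285 to 1493 in LIN28B OE, 3704 to 4381 in let-7 WT and 2985 to 3343 in let-7 KO. Of these 12 markers, 10 were called lower (p below 0.01 in edgeR's quasi-likelihood test) and 0 higher in LIN28B OE, and 4 lower and 0 higher in let-7 KO, while the 5 cap mesenchyme markers summed to 295.2 to 345.8 CPM in LIN28B OE against 45.89 to 62.58 in its controls, all 5 called higher. In let-7 KO the cap mesenchyme sum was 45.78 to 94.75 CPM against 31.08 to 42.65 in let-7 WT, with 0 of 5 called. Of the other nephron and vessel markers, 2 of 3 thick limb genes were called lower in LIN28B OE, with sums of 312.5 to 471.7 CPM against 695.2 to 1065 in controls. For endothelium 2 of 3 genes were, with sums of 120.1 to 127.0 CPM against 166.2 to 212.3. In let-7 KO 0 of 3 in either list were called. Of 4 podocyte genes 0 were called in either model. Of 3 collecting duct genes 0 were called in LIN28B OE and 1 lower in let-7 KO (Hsd11b2, log2 fold change -0.91 ± 0.25). There Scnn1g was at -0.37 ± 0.25 and Aqp2 at 0.55 ± 0.31. The collecting duct sum was 1774 to 2246 CPM in let-7 KO against 788.2 to 1942 in let-7 WT. Of 3 stroma genes 1 was called lower in LIN28B OE (Pdgfrb, -0.81 ± 0.16) and 0 in let-7 KO. In LIN28B OE Foxd1 was at 0.70 ± 0.26 and Col1a1 at 0.04 ± 0.12. In whole kidneys, fewer proximal tubule cells and less RNA of a gene per cell cannot be told apart, and the part of cell make-up in the members' values was not tested.

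Corrected for transcript length, Gatm was the highest member in every group. In LIN28B controls its level per kilobase of exon averaged 298 CPM, followed by Keg1 (27.4), Hgd (26.8), Acsm2 (13.4), Dao (12.6), Glyat (10.4), Ddc (3.94), Agmat (1.78) and Hpd (0.143). The ranges over 3 kidneys overlapped between Keg1 and Hgd, between Acsm2 and Dao and between Dao and Glyat, so those neighbours in the order were not separated beyond their spread. In LIN28B OE kidneys Acsm2 stood sixth, at 3.27 CPM per kilobase, overlapping Ddc at 2.95. In let-7 KO kidneys it was again sixth, at 8.74, below Glyat at 17.6, which it did not overlap. The share of Gatm in the members' summed CPM, not corrected for length, was 64.49 to 70.62% in LIN28B controls and 53.93 to 58.23% in LIN28B OE kidneys, and it was 64.83 to 70.92% in let-7 WT and 51.06 to 55.61% in let-7 KO kidneys.

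In LIN28B OE kidneys the first enzyme of creatine synthesis and the acyl-CoA synthetase had the largest deficit of the 8 members with a fitted value. Gatm was at 895.3, 981.0 and 803.5 CPM in the 3 LIN28B controls and at 299.3, 323.7 and 311.0 in the 3 LIN28B OE kidneys. The OE kidneys lay close together and far below every control, a log2 fold change of -1.52 ± 0.12 (SE), or 2.87-fold lower. Acsm2 was at 109.9, 77.83 and 110.6 CPM in controls and at 21.99, 22.85 and 28 in OE kidneys. The groups were again apart, with a log2 fold change of -2.03 ± 0.20, or 4.09-fold lower. Within litters the log2 ratio of OE to control was -1.59 (litter 1) and -1.37 (litter 2, 1 kidney a side) for Gatm and -2.07 and -1.98 for Acsm2.

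The glycine N-acyltransferase genes were also below every control, by less. Keg1 was at 161.2, 166.2 and 138.5 CPM in LIN28B controls and at 97.03, 103.3 and 101.9 in LIN28B OE kidneys (log2 fold change -0.62 ± 0.13). Glyat was at 51.43, 44.47 and 53.52 CPM in controls and at 29.69, 31.73 and 20.33 in OE kidneys (log2 fold change -0.87 ± 0.20). For both genes the highest OE kidney was below the lowest control. Dao, which acts on D-serine and other D-amino acids, was at 33.25, 32.72 and 45.71 CPM in controls and at 26.05, 27.2 and 20.15 in OE kidneys (log2 fold change -0.60 ± 0.21), also without overlap.

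The tyrosine, dopamine and agmatine enzymes overlapped between the groups, with 1 exception at very low counts. Hgd was at 68.94, 66.33 and 74.61 CPM in LIN28B controls and at 68.94, 64.76 and 38.05 in LIN28B OE kidneys, where the low value is the kidney of litter 2 (log2 fold change -0.29 ± 0.22). Ddc was at 18.8, 17.85 and 16.09 CPM in controls and at 9.641, 16.71 and 13.13 in OE kidneys (log2 fold change -0.42 ± 0.26). In each gene 1 OE kidney lay inside the control range. Agmat, at 2.085 to 3.065 CPM in controls and 1.547 to 2.898 in OE kidneys, differed by a log2 fold change of -0.15 ± 0.56, and it was above 0 without control replicate 3 (0.04) or without OE replicate 3 (0.05). Hpd was counted 4, 17 and 24 times in the controls and 0, 1 and 0 times in the OE kidneys. Those 45 counts against 1, pooled over kidneys and divided by library totals without TMM scaling, give a ratio (OE over control) of 0.0190. Its exact 95% counting interval, 0.000469 to 0.111, leaves out the spread between kidneys. The interval is no test, since the members were chosen on this comparison. Hpd was removed by the filter on low counts in both models.

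**Figure D1:**
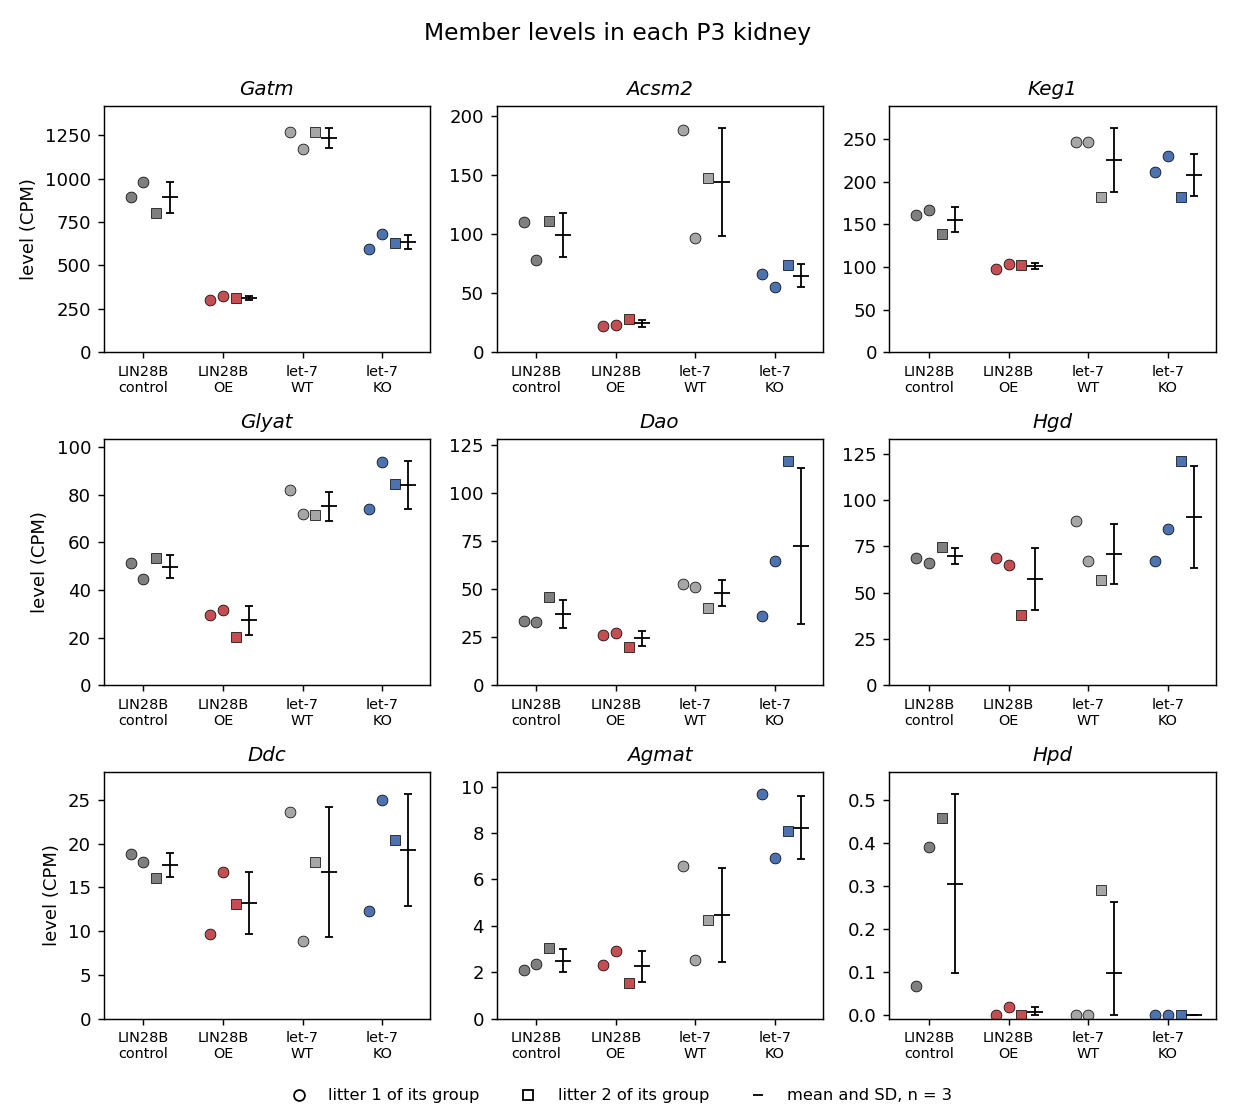
Level of each of the 9 members in CPM (y axis from 0, a scale of its own for each gene) in the 3 kidneys of each group on the x axis, with the symbol showing the litter and bars giving the mean and SD. Gatm and Acsm2 lie below every control in both models, while in let-7 KO kidneys Keg1 and Glyat overlap let-7 WT and the highest Dao and Hgd values, 116.5 and 121.0 CPM, belong to the same kidney.

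Of the 8 members tested in LIN28B OE kidneys, 4 (Acsm2, Gatm, Glyat and Keg1) were among the genes called lower and none was called higher, where 4.08% of the 15793 genes tested were called lower and 3.25% higher. The members had been selected on this comparison, so nothing is read from that count. The median of the 8 log2 fold changes was -0.61, against -0.02 over all genes tested, and all 8 were below 0, although 6 of them, all but Gatm and Acsm2, were above 0 once levels were divided by the summed proximal tubule markers.

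In let-7 KO kidneys Gatm and Acsm2 were the 2 members below every control. Gatm was at 1269, 1169 and 1268 CPM in let-7 WT and at 597.6, 680.0 and 632.1 in let-7 KO kidneys. No kidney overlapped, and Gatm had a log2 fold change of -0.97 ± 0.15, or 1.96-fold lower. Acsm2 was at 188.1, 96.75 and 147.0 CPM in let-7 WT and at 65.94, 54.87 and 73.83 in let-7 KO kidneys. Its groups did not overlap either, although the let-7 WT kidneys spread widely, with a log2 fold change of -1.17 ± 0.25, or 2.24-fold lower. Within litters the log2 ratio of KO to WT was -0.93 (litter 1) and -1.0 (litter 2) for Gatm and -1.24 and -0.99 for Acsm2.

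The enzymes that conjugate glycine showed no such separation. Keg1 was at 246.9, 247.1 and 181.7 CPM in let-7 WT and at 211.7, 230.6 and 181.7 in let-7 KO kidneys (log2 fold change -0.13 ± 0.19). Glyat was at 82.17, 71.73 and 71.59 CPM in let-7 WT and at 74.04, 93.87 and 84.44 in let-7 KO kidneys (log2 fold change 0.14 ± 0.18). For both genes the groups overlapped.

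Dao and Hgd were high in 1 let-7 KO kidney. Dao was at 52.7, 51.05 and 40.16 CPM in let-7 WT and at 36.23, 64.52 and 116.5 in let-7 KO kidneys (log2 fold change 0.57 ± 0.35). Hgd was at 88.71, 67.41 and 57.11 CPM in let-7 WT and at 67.08, 84.64 and 121.0 in let-7 KO kidneys (log2 fold change 0.33 ± 0.25). In both genes the highest value was the KO kidney of litter 2, and without it the log2 fold change came to 0.06 for Dao and 0.08 for Hgd. Within litter 1 the log2 ratio of KO to WT was -0.04 for each of these genes, and within litter 2, with 1 kidney a side, it was 1.54 for Dao and 1.08 for Hgd.

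Agmat was the member with every let-7 KO kidney above every let-7 WT kidney. It was at 6.576, 2.535 and 4.26 CPM in let-7 WT and at 9.658, 6.935 and 8.105 in let-7 KO kidneys (log2 fold change 0.87 ± 0.48), with a log2 ratio of 0.86 in litter 1 and 0.93 in litter 2. Ddc ranged from 8.817 to 23.55 CPM in let-7 WT and from 12.32 to 24.93 in let-7 KO kidneys (log2 fold change 0.17 ± 0.39), and its direction turned without let-7 WT replicate 2 (-0.12) or let-7 KO replicate 2 (-0.05). Hpd was counted 17 times in 1 let-7 WT kidney and 0 times in the other 2 and in all 3 let-7 KO kidneys, with 3 counts corresponding to at most 0.0751 CPM in any kidney.

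Of the 8 members tested in let-7 KO kidneys, 2 (Gatm and Acsm2) were among the genes called lower and none was called higher, where 1.63% of 15500 genes were called lower and 1.1% higher. Here too the count comes from the comparison on which the members were selected. The members' median was 0.16, against -0.02 over all genes tested, with 3 members below 0 and 5 above.

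**Figure D2:**
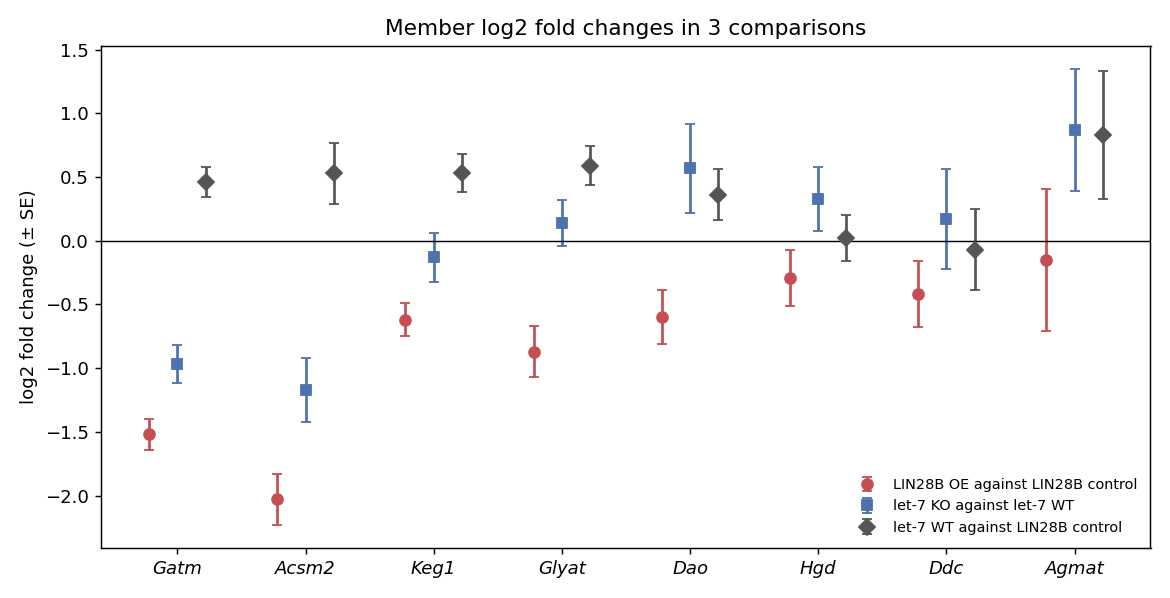
Log2 fold change (y axis) of the 8 members tested, on the x axis, in LIN28B OE against LIN28B control, let-7 KO against let-7 WT and let-7 WT against LIN28B control kidneys, with bars giving the standard error. All LIN28B OE points are below 0, from -2.03 to -0.15, of which all but Gatm and Acsm2 are above 0 when divided by the proximal tubule markers, and let-7 KO points run from -1.17 to 0.87.

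Each of the 8 members tested in both models had a lower log2 fold change in LIN28B OE than in let-7 KO. The difference between the models, LIN28B OE minus let-7 KO in 1 fit of 12 kidneys, was -1.20 ± 0.45 (SE) for Dao, -1.04 ± 0.67 for Agmat, -1.03 ± 0.26 for Glyat and -0.88 ± 0.32 for Acsm2. It was -0.64 ± 0.36 for Hgd, -0.61 ± 0.50 for Ddc, -0.56 ± 0.17 for Gatm and -0.51 ± 0.22 for Keg1. Hpd, removed by the filter from the separate fits, was kept in the fit of 12 kidneys at very low counts. Its fitted difference was 0.21. With 1 count summed over LIN28B OE kidneys and 0 over let-7 KO kidneys, neither its size nor its direction can be read. These differences come from the contrasts that chose the members and carry no test.

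Set against the summed level of the 12 proximal tubule markers, Gatm and Acsm2, chosen for being lower in both models, were still lower in both. The other members were not. Single markers spread widely. In LIN28B OE their log2 fold changes ran from -2.71 (Slc5a2) to -0.36 (Cubn), a range that holds Gatm (-1.52) and Acsm2 (-2.03). In let-7 KO they ran from -1.0 (Slc5a2) to 0.25 (Slc3a1), which holds Gatm (-0.97) but not Acsm2 (-1.17). The marker sum averaged 2753 ± 18.1 CPM (SD, n = 3) in LIN28B controls and 1412 ± 112 in LIN28B OE kidneys, and 3936 ± 385 in let-7 WT and 3193 ± 186 in let-7 KO kidneys, log2 ratios of -0.97 and -0.30. Gatm was 32.33, 35.89 and 29.14% of that sum in LIN28B controls and 20.52, 21.69 and 24.21% in LIN28B OE kidneys. In let-7 WT kidneys it was 28.98, 31.56 and 34.05% of the sum, and in let-7 KO kidneys 20.02, 20.34 and 19.44%. The 2 control groups overlapped each other and every mutant kidney was below all 6 controls, with log2 ratios of -0.55 (LIN28B OE) and -0.66 (let-7 KO).

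Acsm2 behaved likewise. It was 2.847 to 4.01% of the marker sum in LIN28B controls and 1.508 to 2.18% in LIN28B OE kidneys (log2 ratio -1.06), and 2.612 to 4.292% in let-7 WT and 1.641 to 2.27% in let-7 KO kidneys (log2 ratio -0.81). Every mutant kidney was below every control of its model. Hgd and Agmat moved the other way in both models, with log2 ratios of 0.63 and 0.63 for Hgd and 0.79 and 1.28 for Agmat, and every mutant kidney above every control of its model.

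Keg1, relative to the markers, was above every control in LIN28B OE (log2 ratio 0.35) and overlapped in let-7 KO (0.19). Glyat was the reverse, overlapping in LIN28B OE (0.07) and above every let-7 WT kidney in let-7 KO (0.46). Ddc and Dao overlapped in both models, with log2 ratios of 0.52 and 0.55 for Ddc and 0.37 and 0.74 for Dao. These ratios depend on the markers chosen, since they divide by transporters and receptors that were themselves mostly called lower in LIN28B OE.

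**Figure D3:**
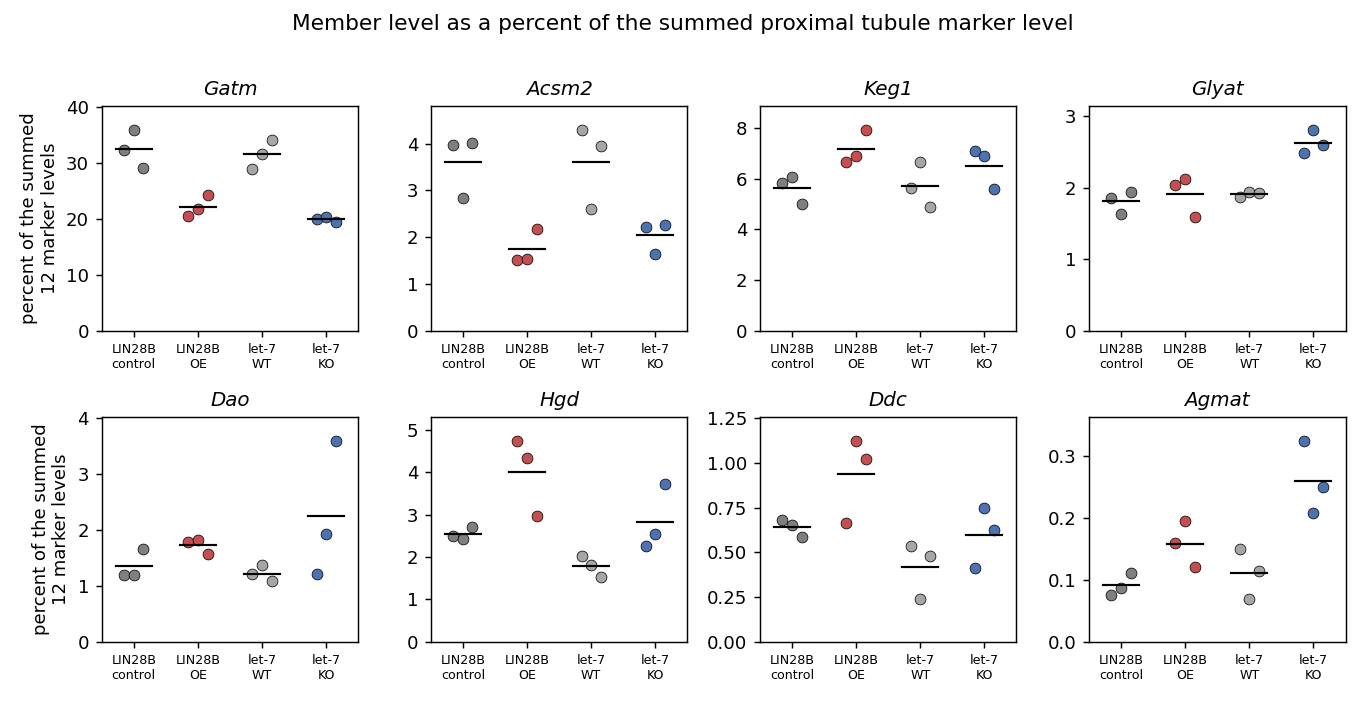
Level of 8 members as a percent of the summed level of 12 proximal tubule markers (y axis from 0, a scale of its own for each gene) in the 3 kidneys of each group on the x axis, with lines giving the mean. Gatm lies at 28.98 to 35.89% in all 6 control kidneys and at 19.44 to 24.21% in all 6 mutant kidneys, and Hgd and Agmat are higher in the mutant kidneys of each model.

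The 2 control groups, which differ in strain and litters, were compared because the members' choice did not rest on that contrast, although the same control kidneys enter the comparisons it did rest on. Glyat, Gatm and Keg1 were higher in let-7 WT than in LIN28B control kidneys, in every kidney. In edgeR's quasi-likelihood test with Benjamini-Hochberg adjustment over 15850 genes, the log2 difference was 0.59 ± 0.15 for Glyat (adjusted p = 0.1113), 0.46 ± 0.12 for Gatm (adjusted p = 0.1199) and 0.53 ± 0.15 for Keg1 (adjusted p = 0.1685). All 3 were called at p below 0.01 and none passed the adjustment. Acsm2 overlapped, with a log2 difference of 0.53 ± 0.24 (adjusted p = 0.3931).

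The 9 members thus held 3 called higher and 0 called lower in the control contrast, where 2.82% of genes were called higher and 1.97% lower. The median of the 9 log2 differences was 0.46, against -0.01 over all genes tested. Beside these values, 5 of the 12 proximal tubule markers were called higher and 0 lower in let-7 WT kidneys, and relative to the marker sum Gatm, Acsm2, Keg1 and Glyat overlapped between the 2 control groups. Strain, litter, any exposure of the LIN28B litters to doxycycline and any difference in library preparation, which the labels do not state, cannot be told apart in this contrast. The Y-linked genes were also unevenly spread, high in LIN28B control replicate 3 and in let-7 WT replicates 2 and 3. The calls of Glyat, Gatm and Keg1 were each lost without certain single kidneys, with log2 differences that stayed above 0. Keg1 lost its call without any of LIN28B control replicates 1, 2 and 3 and let-7 WT replicates 1 and 2 (log2 difference 0.46 to 0.58), Gatm without LIN28B control replicates 1 or 3 or let-7 WT replicate 1 (0.40 to 0.47), and Glyat without LIN28B control replicate 2 or let-7 WT replicate 1 (0.51 and 0.52), while Acsm2 was called without let-7 WT replicate 2 (0.75).

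The other genes of these pathways were 86 named from textbook knowledge, of which 85 were found in the counts. In LIN28B OE kidneys 16 of 72 tested were called lower and 2 higher, 3 with an adjusted p below 0.05, beside 4.08% and 3.25% of all genes, and the log2 values of all 72 had a median of -0.25. In let-7 KO kidneys 1 of 70 was called lower and 1 higher, beside 1.63% and 1.1% of all genes, which is near the background, with a median of 0.04. In let-7 WT against LIN28B control kidneys 1 of 71 was lower and 12 higher, beside 1.97% and 2.82% of all genes, with a median of 0.23.

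Of the creatine genes beyond Gatm, 1 of 7 tested was called in LIN28B OE. Slc16a12, a creatine transporter of the tubule, was at 74.96, 78.33 and 55.44 CPM in LIN28B controls and at 42.0, 37.97 and 47.42 in LIN28B OE kidneys. It was called lower, without overlap, with a log2 fold change of -0.71 ± 0.19 (adjusted p = 0.09346), and it lost the call without either of LIN28B control replicates 1 and 2 or LIN28B OE replicates 1 and 2. Slc16a12 in let-7 KO differed by -0.67 ± 0.32 on the log2 scale (adjusted p = 0.475) with overlapping kidneys. Gamt, which completes creatine synthesis from Gatm's product, had log2 fold changes of 0.35 ± 0.24 and 0.14 ± 0.25, and Slc6a8, the other creatine transporter listed, had -0.01 ± 0.19 and -0.15 ± 0.25. Ckb, brain-type creatine kinase, rose in let-7 KO kidneys, by 0.56 ± 0.17 on the log2 scale (adjusted p = 0.3623), a call kept only without let-7 KO replicate 3 when kidneys were left out in turn.

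In tyrosine breakdown, Fah, the last enzyme of the pathway after Hgd, differed by -0.62 ± 0.20 on the log2 scale in LIN28B OE (adjusted p = 0.1388) and by 0.44 ± 0.22 in let-7 KO (adjusted p = 0.5048), and neither passed.

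Tryptophan and monoamine genes accounted for 5 of the 16 lower calls in LIN28B OE. These were 2 of 10 tryptophan and 3 of 7 monoamine genes tested, beside 4.08% of all genes. Aadat, an aminotransferase that also acts on kynurenine, was at 548.9, 498.8 and 371.0 CPM in controls and at 264.0, 289.9 and 208.4 in OE kidneys, a log2 fold change of -0.90 ± 0.18 (adjusted p = 0.04906). Acmsd, which diverts tryptophan breakdown from NAD synthesis, was at 12.45, 17.71 and 17.38 CPM in controls and at 0.5229, 0.2991 and 4.214 in OE kidneys (log2 fold change -3.22 ± 0.85, adjusted p = 0.09463). Both genes were below every control in every OE kidney. Tph1, tryptophan hydroxylase, differed by -2.02 ± 0.53 on the log2 scale (adjusted p = 0.09297). Drd1a, a dopamine receptor, was counted 54, 13 and 15 times in controls and 1, 0 and 0 times in OE kidneys (adjusted p = 0.1058), and the call was lost with each kidney left out in turn. The call of Acmsd was lost without LIN28B control replicates 2 or 3 or LIN28B OE replicate 1, that of Tph1 without LIN28B control replicates 2 or 3, and that of Aadat held without any 1 kidney. No gene of these 2 lists was called in let-7 KO.

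The glycine, serine and D-amino acid list, the longest, held 7 lower calls of 20 tested and 0 higher in LIN28B OE. Of all genes tested 4.08% were called lower and 3.25% higher, and the list's median was -0.50. Sardh, sarcosine dehydrogenase, was at 131.7, 125.3 and 133.7 CPM in controls and at 83.94, 71.0 and 71.57 in OE kidneys, a log2 fold change of -0.78 ± 0.14 (adjusted p = 0.03116). Dmgdh, dimethylglycine dehydrogenase, had -2.34 ± 0.49 (adjusted p = 0.0574), Pipox, pipecolate and sarcosine oxidase, had -1.12 ± 0.23 (adjusted p = 0.05479), and Agxt2, an aminotransferase, had -0.83 ± 0.23 (adjusted p = 0.1052). The call of Agxt2 was lost without LIN28B control replicate 1 or 3 or LIN28B OE replicate 1, and the other 3 held without any 1 kidney. Of the 21 genes tested in let-7 KO none was called, where Sardh was at 0.03 ± 0.20. The difference between the models for Sardh was -0.83 ± 0.24 (adjusted p = 0.5371).

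Acyl-CoA and acyl amino acid genes near Acsm2, Keg1 and Glyat in function held 2 lower calls of 10 tested in LIN28B OE and 0 of 7 in let-7 KO. Acy3, an aminoacylase, differed by -0.77 ± 0.21 on the log2 scale (adjusted p = 0.1), and Baat, which conjugates bile acids to amino acids, was counted 32, 33 and 40 times in controls and 0 times in each OE kidney (adjusted p = 0.07041). The call of Acy3 was lost without LIN28B control replicate 2 or 3. Acsm1, a relative of Acsm2, did not pass in either model, at -0.21 ± 0.24 on the log2 scale in LIN28B OE (adjusted p = 0.7186) and 0.18 ± 0.23 in let-7 KO (adjusted p = 0.8226). It was at 65.39, 86.04 and 86.66 CPM in LIN28B controls and at 51.54, 97.48 and 56.46 in LIN28B OE kidneys. Reads shared between related genes such as these, or between Glyat and Keg1, could have been counted to either or dropped, since their treatment is not stated.

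Polyamine genes, neighbours of Agmat, were the list with calls in the other direction in LIN28B OE, 2 higher and 0 lower of 9 tested. Sms, spermine synthase, was at 49.73, 47.95 and 63.55 CPM in controls and at 85.17, 80.78 and 84.98 in OE kidneys (log2 fold change 0.64 ± 0.16, adjusted p = 0.08408). Srm, spermidine synthase, was at 82.61, 93.32 and 110.8 CPM in controls and at 140.0, 139.7 and 148.9 in OE kidneys (log2 fold change 0.58 ± 0.15, adjusted p = 0.08695). Both were above every control, both lost their calls without LIN28B control replicate 1 or 2, and 0 of 9 genes were called in let-7 KO.

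In the control contrast the genes called higher in let-7 WT included Maoa, monoamine oxidase A (log2 difference 0.80 ± 0.14, adjusted p = 0.03708), Qprt, of NAD synthesis (0.80 ± 0.15, adjusted p = 0.04153), Acy1, aminoacylase 1 (1.23 ± 0.20, adjusted p = 0.02575), and Pm20d1, an N-acyl amino acid enzyme (2.08 ± 0.37, adjusted p = 0.03617). Slc16a12 (0.88 ± 0.21, adjusted p = 0.09599) and Aadat (0.81 ± 0.23, adjusted p = 0.1628) were also called higher, as were Gch1, Got1, Qdpr and Pcbd1 of the tyrosine and phenylalanine list and Pipox and Grhpr of the glycine list. Drd1a was the gene called lower, counted 54, 13 and 15 times in LIN28B controls and 0 times in each let-7 WT kidney, a call lost without any of the 3 LIN28B controls or let-7 WT replicates 1 and 3. The calls of Maoa, Qprt, Acy1, Pm20d1 and Got1 held without any 1 kidney, Slc16a12 and Pipox lost theirs without let-7 WT replicate 1, and the other 5 lost theirs without any of 3 to 5 single kidneys. With the Y-linked covariate Gch1, Pcbd1 and Drd1a lost their calls in this contrast.

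**Figure D4:**
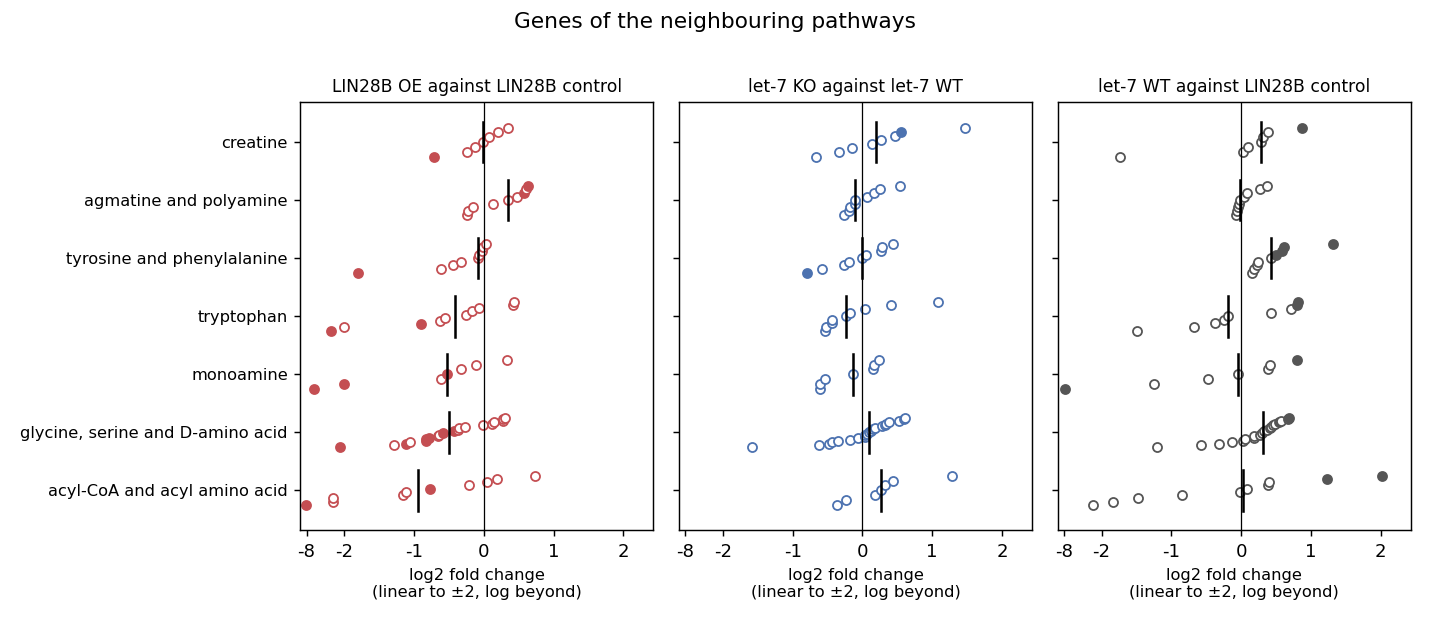
Log2 fold change (x axis, linear to 2 and logarithmic beyond) of each tested gene of the 7 pathway lists (y axis) in the 3 comparisons, with filled circles for p below 0.01 in edgeR's quasi-likelihood test and lines for the list's median. In LIN28B OE 16 of 72 genes are filled to the left of 0 and 2 to the right, and the far left points rest on genes counted 0 times in some kidneys.

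Across the 12 kidneys the genes whose log2 level was most like that of Gatm were Nox4 (Pearson r 0.988), Smpdl3a (0.977) and Enpp2 (0.975), and those most like Acsm2 were Enpp2 (0.981), Chdh (0.973) and Mut (0.969). Acsm2 was 12th in likeness to Gatm among 14063 genes (r 0.954), and Gatm was 4th in likeness to Acsm2. These correlations describe 4 groups of 3 kidneys that share litters and depth, and they rest in large part on the differences between groups. Gatm and Acsm2 were chosen for being lower in both models, so their likeness follows in part from that choice and nothing is read from their ranks.

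Among the other pairs of members, Keg1 and Glyat had r 0.911, Dao and Hgd 0.862 and Glyat and Dao 0.833. Keg1 had 0.803 with Gatm and 0.748 with Acsm2, and Glyat had 0.728 and 0.719, whereas Gatm had 0.309 with Hgd and 0.255 with Agmat. Ddc had at most 0.446 with any member. The nearest genes were Sucla2 and Aadat for Keg1 (both 0.976), Rnf128 for Glyat (0.983), Cml1 for Dao (0.972), Gabarapl1 for Hgd (0.961), Rab11a for Agmat (0.928) and Acad12 for Ddc (0.903).

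Some members are also enzymes of liver and adrenal gland, tissues that lie near the kidney. The 7 hepatocyte markers summed to 12.45 to 46.56 CPM over the 12 kidneys, with 40.65 to 46.56 in LIN28B controls, 30.32 to 43.09 in LIN28B OE, 17.96 to 21.96 in let-7 WT and 12.45 to 35.98 in let-7 KO, and Alb, albumin, was at most 5.82 CPM. The 9 adrenal markers summed to 2.272 to 3.598 CPM in LIN28B controls, 6.683 to 9.51 in LIN28B OE, 3.581 to 5.896 in let-7 WT and 3.934 to 4.317 in let-7 KO. Pnmt, the adrenaline-forming enzyme, was at 3.42, 3.14 and 2.45 CPM in LIN28B OE against 0 counts in each control. It was the 1 marker called of the 3 tested there, beside Star (log2 fold change 0.69 ± 0.53) and Chga (0.76 ± 1.64). Dbh was counted 1, 0 and 0 times in LIN28B OE kidneys and 19, 0 and 0 times in controls. Th, which precedes Ddc in dopamine synthesis, was at 0 counts in every LIN28B OE and let-7 KO kidney and at 39 counts or fewer in the others. The part of these tissues in the members' values was not tested.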

How the data were processed

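Whole P3 kidneys were sequenced as RNA from low-input SMARTer libraries. The authors deposited raw counts per gene symbol, 1 table a kidney. The submitters' processing notes name cutadapt, TopHat2 2.0.9, Bowtie2, SAMtools 0.1.19, HTSeq and mm10, and the study states alignment to the mouse transcriptome. Annotation, strand setting and the treatment of shared reads are not given in the sources used here. Wild-type kidneys were assigned to a model by their strain label.

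Each comparison had its own quasi-likelihood fit in edgeR 4.0.16 under R 4.3.3, after TMM and filterByExpr at its default settings (counts of 10, total of 15). A gene was called at p below 0.01, the study's threshold, and Benjamini-Hochberg adjusted p-values cover all genes tested. Standard errors were taken from the fold change and the F statistic. Levels are CPM scaled by TMM over the 12 kidneys, divided by exon length (GENCODE M21, GRCm38) between genes. Likeness is Pearson's r of log2(CPM + 0.5) among genes of mean CPM 1 or more. Pathway genes are named when called, at most 4 per list and direction by p, with Gamt, Slc6a8, Fah, Acsm1, Th, Pnmt and Alb added after their values were seen. Some of the genes called are not reported here by name. The scripts were tested on simulated counts.

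The members and gene lists were chosen with earlier results of these data known. The labels state litters, which pair the kidneys of a model, so a fit with litter as a block was run. Deviations from group means correlated on average at -0.11 within and 0.14 between litters in the LIN28B model, and at -0.03 and 0.03 in the let-7 model. The 4 Y-linked genes were high in 6 of the 12 kidneys, at least 1 in each group. No 2 kidneys of a group agreed within sampling noise (chi-square per gene 31.6 or more). Intervals and floors cover counting error only. The labels do not say whether kidneys of a litter come from different animals, so p-values measure the spread between these kidneys. Other alternatives are listed in the closing section.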

Additional observations from a re-analysis of the deposited data

How the results depend on the processing

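Alternatives were DESeq2 1.42.0, RLE normalization, no filter, a filter of 1 CPM in every kidney, 1 fit of 12 kidneys, a Y-linked covariate, litter as a block, scaling to proximal tubule markers, an adjusted p below 0.05 and each kidney left out. The litter block gave 904 genes called in LIN28B OE and 288 in let-7 KO (1158 and 423 without it), with 16 and 2 other pathway genes, and the paired fit changed no call of a gene named in the text. The count rose with DESeq2 to 844 in let-7 KO and 1141 in the control contrast (759 with edgeR), and to 687 in let-7 KO in 1 fit of 12. At an adjusted p below 0.05 the counts were 194, 3 and 188. Leaving out 1 kidney gave 515 to 2509 genes called in LIN28B OE (530 without control replicate 1, 515 without control 2 and 2509 without OE 3), 162 to 1296 in let-7 KO (199 without WT 1, 211 without WT 3, 1296 without KO 1, 162 without KO 2 and 194 without KO 3) and 454 to 1130 in the control contrast (477 without LIN28B control 1, 454 without control 2 and 499 without WT 1). Other pathway genes called ranged over 7 to 21 (10, 7 and 9 without controls 1, 2 and 3), 1 to 4 (1 without WT 1, 2 or 3 or KO 2, and 4 without KO 1) and 7 to 17 (8 without control 1 and 7 without WT 1). The Y-linked covariate left 1 pathway gene in let-7 KO. Of 30 calls of pathway genes that met the rule for naming, 12 held with every kidney left out in turn and 0 reversed. The members' median log2 fold change ranged from -0.64 to -0.57 in LIN28B OE, from 0.01 to 0.36 in let-7 KO and from 0.36 to 0.51 in the control contrast without 1 kidney.

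Scaling to proximal tubule markers moved the members' median to 0.36 in LIN28B OE and 0.50 in let-7 KO. It reversed Agmat (0.79), Ddc (0.52), Hgd (0.63), Dao (0.37), Keg1 (0.35) and Glyat (0.074) in LIN28B OE and Keg1 (0.19) in let-7 KO, because the marker sum itself was lower. Without 1 kidney, Agmat in LIN28B OE ran from -0.35 to 0.052, Ddc in let-7 KO from -0.12 to 0.50, and Hgd and Ddc in the control contrast from -0.17 to 0.15 and from -0.40 to 0.24. Ddc there was 0.039 with the Y-linked covariate. Of 320 member values under alternatives, 286 kept their direction and their side of the threshold or stayed within the replicate spread. Hpd, counted at most 24 times in a kidney, was removed by the filter in both models, so its differences there have no fitted value.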
